A study of Homo sapiens with 4 samples.

Results

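The RNA of MCF10A cells that carried an Ovol2 lentivirus was compared with the RNA of MCF10A cells that carried the same lentivirus without an insert. MCF10A cells are an established human line of breast epithelium that was not derived from a tumour. The cells were grown in DMEM/F12 with horse serum, EGF, cholera toxin and insulin. Cells were infected with pHIV-ZsGreen virus that held an empty vector, Zeb1, Snail or Ovol2, and green cells were sorted by flow cytometry 6 days later. Every group, the empty vector included, thus went through infection and sorting, and each group is 1 library, 4 in all. The sources used here do not state the species of the delivered Ovol2 sequence. Levels are FPKM, fragment counts divided by transcript length and library depth, and rows that share a gene symbol were added up. A gene was kept when it reached 1 FPKM in the empty vector or the Ovol2 library, which held for 11812 of 25317 symbols. RBM43, at 1.00002 and 0.448 FPKM in the empty vector and Ovol2 libraries, lay just inside that limit, and RBM11, at 0.211 and 0.99966 FPKM, just outside.

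OVOL2 is a zinc finger transcription factor of epithelial cells, best known as a repressor of genes of the epithelial-to-mesenchymal transition. Its relatives act in the epidermis, where cells of the basal layer leave the basement membrane, stop dividing and build a cornified envelope of crosslinked proteins and lipids. Basal cells of skin and breast share much of their equipment, including keratins KRT5 and KRT14, hemidesmosomes that anchor keratin to the basement membrane, and laminin-332 in that membrane.

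Each gene was measured by log2(Ovol2 FPKM + 1) minus log2(empty vector FPKM + 1), given in brackets below without a label and called its ratio. The added 1 FPKM understates differences of low genes. A value of 1 or more in size, a 2-fold difference, made a gene higher or lower. With 1 library on each side there is no spread between replicates, so no test was made and all statements describe these libraries only. By this rule 806 kept genes were higher in the Ovol2 library (6.82%) and 2965 were lower (25.1%). On the log2 scale DNAJC12 (1.00036) and HMGB1 (-1.00019) lay just inside the rule, and NUDT16L1 (0.99993) and COPA (-0.999709) just outside.

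**Figure D1:**
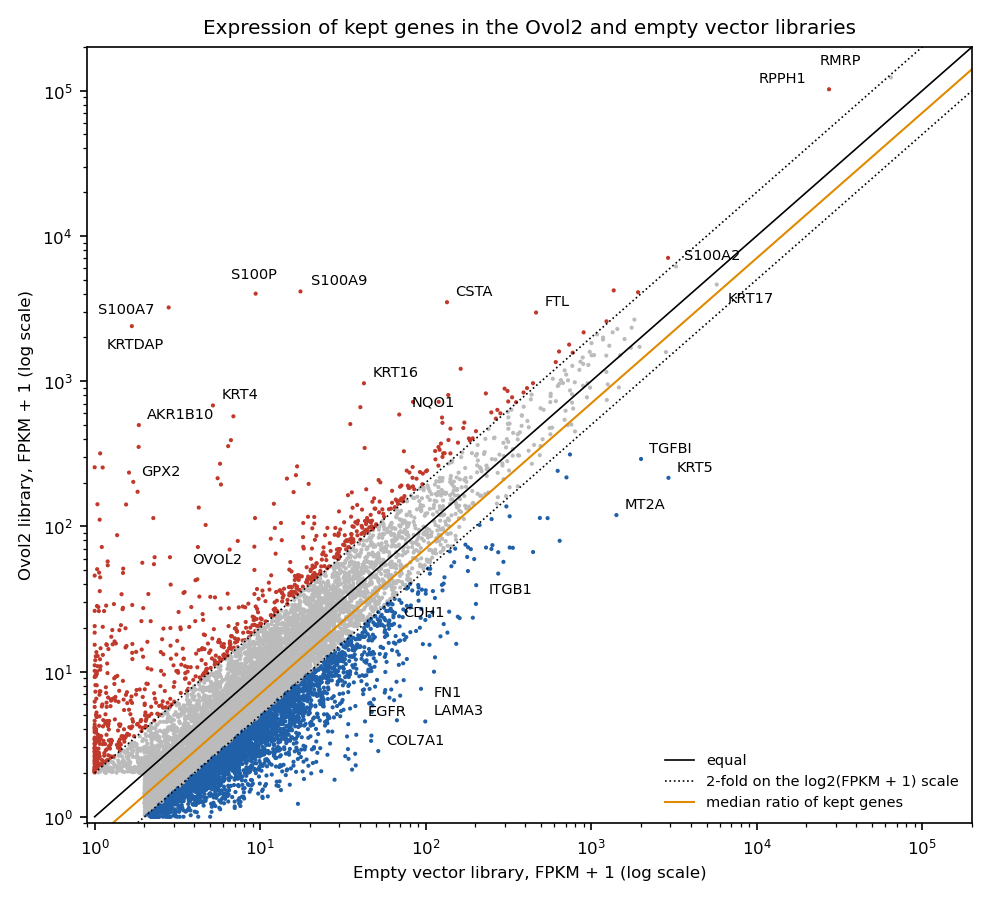
Each point is 1 of the 11812 kept genes, with FPKM + 1 in the empty vector library on the horizontal and in the Ovol2 library on the vertical log axis. Red genes were higher and blue genes lower by 2-fold or more, the dotted lines mark 2-fold, and the orange line the median ratio; the red genes at upper left, such as KRTDAP and S100A7, went from near 1 to above 1000 FPKM, while the blue genes form a dense band under the 2-fold line.

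Higher genes were fewer than lower genes but reached larger ratios. A log2 ratio of 3 or more was reached by 114 genes and one of -3 or less by 45, and 34 genes reached 5 or more while 0 were that far below. The median over all kept genes was -0.51. Centred on that median, 1709 genes were higher (14.5%) and 1053 lower (8.91%), so the share of higher genes among the called ones went from 21.4% to 61.9%. Among the 11359 genes expressed at 1 FPKM or more with the empty vector, 516 were higher (4.54%) and 2965 lower (26.1%). The other 453 kept genes passed the filter only through the Ovol2 library, and a gene of that kind could not be called lower. These shares are the background for the counts of each gene list below. In bulk RNA, fewer cells that express a gene and less of its RNA per cell cannot be told apart.

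Depth was estimated from the step size of low values at about 29500000 fragments for the empty vector library and 24500000 for the Ovol2 library, so 1 fragment per kilobase was worth 0.0339 and 0.0407 FPKM. RMRP and RPPH1, non-coding RNAs of 2 ribonucleases, took 24.6% of all FPKM in the empty vector and 40.6% in the Ovol2 library. With RMRP and RPPH1 left out of the scaling, 569 genes were higher and 3790 lower. The ratios also followed transcript length, with Spearman's rho at -0.49 across genes, which are not independent replicates. The median ratio went from 0.30 in the shortest of 10 equal groups of genes by length (median 648 nucleotides) to -1.07 in the longest (median 9120.5 nucleotides). After the running median over length was taken off, 1107 of 11621 genes were higher (9.53%) and 859 lower (7.39%), and such values are called length-corrected below. With the median over all annotated transcripts of a gene as its length, rho was -0.15 and the corrected counts were 1547 and 1051. The part of RNA quality, composition or length in the ratios was not tested.

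OVOL2 itself was at 6.32 FPKM with the empty vector, 0.563 with Zeb1, 5.26 with Snail and 78.3 with Ovol2. It was thus expressed in the control cells and highest in its own library (3.44). The sources used here do not say whether this level includes fragments of the delivered sequence. ZEB1 and SNAI1 were likewise highest in the libraries labelled with them, at 17.3 and 99.7 FPKM. With Ovol2, ZEB1, a driver of the epithelial-to-mesenchymal transition that Ovol2 is known to repress, was at 0.0380 against 0.260 FPKM in the control, and SNAI1 at 0.725 against 0.152 FPKM. Neither reached the filter in these 2 libraries. SNAI2, the Snail relative that basal epithelial cells express, was at 22.6 against 40.9 FPKM (-0.83), a difference of less than 2-fold. Of 5 kept factors of this transition 3 were lower and 0 higher, namely TWIST1 (0.609 against 5.45 FPKM, -2.003), TCF4 (0.820 against 3.56 FPKM, -1.32) and TWIST2 (1.94 against 5.19 FPKM, -1.07).

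Transcription factors of epidermal differentiation were among the higher genes. GRHL1 and GRHL3, grainyhead-like factors of the epidermal barrier, were at 14.5 against 0.689 FPKM (3.20) and 6.21 against 0.567 FPKM (2.20), while GRHL2, the member that simple epithelia express, was at 8.92 against 14.5 FPKM (-0.64). ELF3, an epithelial ETS factor, was at 11.4 FPKM with the empty vector, 1.66 with Zeb1, 2.61 with Snail and 63.8 with Ovol2, so the Ovol2 library was the highest of the 4. HOPX, a homeodomain protein of suprabasal epidermis, was at 52.9 against 0.199 FPKM (5.49), CEBPA at 33.4 against 5.36 FPKM (2.44), SOX15 at 16.5 against 5.74 FPKM (1.37) and ZNF750, a regulator of terminal differentiation, at 3.64 against 0.908 FPKM (1.28). TP63, the master factor of basal cells, was lower at 8.23 against 23.9 FPKM (-1.43), but its length-corrected value of -0.57 did not pass 2-fold. KLF6 (-1.99), ELF4 (-1.50), KLF7 (-1.42), KLF10 (-1.38) and ELF1 (-1.04) were lower, of which KLF6 alone passed 2-fold after length correction (-1.18). KLF4, a barrier factor, was at 8.73 against 14.9 FPKM (-0.71).

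Cornified envelope genes and their neighbours led the higher side. KRTDAP, a secreted protein of differentiating keratinocytes, was at 0.677 FPKM with the empty vector, 0.740 with Zeb1, 1.27 with Snail and 2391 with Ovol2. S100A7, psoriasin, was at 1.80 FPKM with the empty vector, 1.10 with Zeb1, 1.15 with Snail and 3214 with Ovol2. In both genes the 3 other libraries lay close together near 1 FPKM and the Ovol2 library stood far above them (10.48 and 10.17). At the other end, LAMA3, the alpha chain of laminin-332, was at 98.5 FPKM with the empty vector, 34.3 with Zeb1, 137 with Snail and 3.53 with Ovol2, which put the Ovol2 library 27.9-fold under the empty vector library (-4.46). KRT5, the type II keratin of basal cells, was at 2929 FPKM with the empty vector, 771 with Zeb1, 2022 with Snail and 215 with Ovol2, 13.6-fold lower with Ovol2 than with the empty vector (-3.76).

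The promoters of leading genes on both sides are shown so that the letters of known epithelial motifs can be compared. Each is the 250 bases before the start of the gene in RefSeq on GRCh38.p14, 5′ to 3′ on the gene's strand, with matches to 5 motifs in capitals on either strand. The first motif, of AP-1 factors, was TGANTCA. That of grainyhead-like factors was AACCNGTT. The core bound by OVOL factors was searched as CCGTTA, and the E-box bound by ZEB and SNAIL factors as CAGGTG. The TATA box was searched as TATAAA. The 6 higher genes come first, followed by LAMA3 and KRT5. Their places are chr19:35490465-35490714 on the minus strand for KRTDAP, chr1:153460652-153460901 minus for S100A7, chr1:152983831-152984080 plus for SPRR1A, chr1:153001499-153001748 plus for SPRR3, chr1:153357604-153357853 plus for S100A9, chr19:35528312-35528561 minus for SBSN, chr18:23872770-23873019 plus for LAMA3 and chr12:52520395-52520644 minus for KRT5.
KRTDAP: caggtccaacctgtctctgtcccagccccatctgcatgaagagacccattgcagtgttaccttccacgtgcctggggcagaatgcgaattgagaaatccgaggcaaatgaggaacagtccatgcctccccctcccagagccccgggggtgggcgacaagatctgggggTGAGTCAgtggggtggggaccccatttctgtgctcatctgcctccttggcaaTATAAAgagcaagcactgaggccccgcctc
S100A7: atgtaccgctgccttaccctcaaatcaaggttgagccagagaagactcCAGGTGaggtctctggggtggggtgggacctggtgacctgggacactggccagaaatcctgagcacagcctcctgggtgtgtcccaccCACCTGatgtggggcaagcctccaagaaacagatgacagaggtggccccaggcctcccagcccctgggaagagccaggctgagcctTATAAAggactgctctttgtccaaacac
SPRR1A: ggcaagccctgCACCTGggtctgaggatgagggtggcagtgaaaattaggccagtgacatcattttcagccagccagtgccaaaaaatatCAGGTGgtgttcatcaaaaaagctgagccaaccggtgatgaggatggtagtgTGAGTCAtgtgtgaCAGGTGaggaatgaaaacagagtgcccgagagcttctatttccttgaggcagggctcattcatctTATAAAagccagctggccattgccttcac
SPRR3: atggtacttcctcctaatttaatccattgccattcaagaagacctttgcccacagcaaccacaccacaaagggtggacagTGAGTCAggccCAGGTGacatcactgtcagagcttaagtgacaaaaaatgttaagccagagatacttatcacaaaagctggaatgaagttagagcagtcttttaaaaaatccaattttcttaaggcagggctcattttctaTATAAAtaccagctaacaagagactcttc
S100A9: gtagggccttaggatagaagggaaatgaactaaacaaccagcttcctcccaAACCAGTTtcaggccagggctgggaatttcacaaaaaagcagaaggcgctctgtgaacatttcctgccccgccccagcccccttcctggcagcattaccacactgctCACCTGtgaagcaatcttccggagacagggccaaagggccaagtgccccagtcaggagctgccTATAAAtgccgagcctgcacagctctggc
SBSN: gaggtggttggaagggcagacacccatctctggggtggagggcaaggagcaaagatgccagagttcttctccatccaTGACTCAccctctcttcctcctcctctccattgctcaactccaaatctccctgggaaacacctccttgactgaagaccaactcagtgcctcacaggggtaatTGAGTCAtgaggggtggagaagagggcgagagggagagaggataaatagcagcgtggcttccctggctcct
LAMA3: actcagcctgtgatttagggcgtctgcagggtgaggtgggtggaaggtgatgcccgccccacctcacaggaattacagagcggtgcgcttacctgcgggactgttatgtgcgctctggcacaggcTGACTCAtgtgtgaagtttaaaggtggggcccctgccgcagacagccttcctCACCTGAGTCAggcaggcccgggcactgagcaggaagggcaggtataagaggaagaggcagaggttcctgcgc
KRT5: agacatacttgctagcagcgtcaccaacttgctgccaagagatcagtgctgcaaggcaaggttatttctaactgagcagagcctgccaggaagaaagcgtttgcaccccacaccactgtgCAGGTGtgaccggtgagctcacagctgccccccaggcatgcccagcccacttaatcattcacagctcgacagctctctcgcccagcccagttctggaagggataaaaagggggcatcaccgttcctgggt

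In KRTDAP an AP-1 match began 82 bases before the start and a TATA match 30 bases before it. S100A7, SPRR1A, SPRR3 and S100A9 also held a TATA match, 28 or 29 bases before the start, and each held an E-box match. These promoters were picked among leading genes. In all, 6 of the 21 leading higher genes with an entry held a TATA match, 5 an AP-1 match and 10 an E-box match. Of the leading genes not shown, SPRR1B held no TATA match and KLK7 no match to any motif. SBSN held 2 AP-1 matches and no TATA match, S100A9 a grainyhead-like match, and LAMA3 held 2 AP-1 matches, of which the nearer overlapped an E-box match. In KRT5 there was 1 match, to the E-box. Of the 26 leading lower genes with an entry, 3 held a TATA match, 2 an AP-1 match and 2 an E-box match. The 2 with an E-box match were LAMA3 and KRT5, the lower genes shown here. Over all promoters the AP-1 letters stood in 6.596% of 27305, in 4.09% of the 8616 kept, 12.2% of the 543 higher and 3.48% of the 2241 lower genes with an entry. The same shares were 17.5%, 16.02%, 24.7% and 14.3% for the E-box, 11.1%, 5.33%, 14.9% and 4.95% for the TATA box and 1.48%, 1.24%, 2.76% and 1.07% for the grainyhead-like letters. For the OVOL core they were 2.52%, 3.26%, 2.58% and 3.84%, and none of the 21 leading higher and 26 leading lower genes with an entry held it in this window. A match is a run of letters and not a site shown to be bound.

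The epidermal differentiation complex on chromosome 1, which runs from S100A10 to S100A1 and holds most genes of the cornified envelope, was described gene by gene. Of its 61 protein-coding genes in the table, 53 had a higher FPKM in the Ovol2 library than in the empty vector library. Of the 61, however, 21 were under 1 FPKM in both libraries, where trace values set the direction. Over all 25317 symbols, 6482 were listed at 0 with the empty vector and 3478 with Ovol2. The count of 53 is therefore not read as a result about the complex. In all, 40 were kept, 34 of them higher and 0 lower, and of the 14 expressed at 1 FPKM or more with the empty vector 9 were higher. Along the kept genes there was a run of 20 higher neighbours from IVL to S100A4, the pseudogene S100A7L2 included, of which 7 were expressed at 1 FPKM or more with the empty vector, and one of 13 from RPTN to LCE1A, of which none was. Genes that passed the filter only through the Ovol2 library could not be called lower, so the lengths of these runs are a description and no support. The sum over the 61 genes was 6007 FPKM with the empty vector, 3916 with Zeb1, 4548 with Snail and 22061 with Ovol2. Most of that sum came from the S100 genes of the complex.

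**Figure D2:**
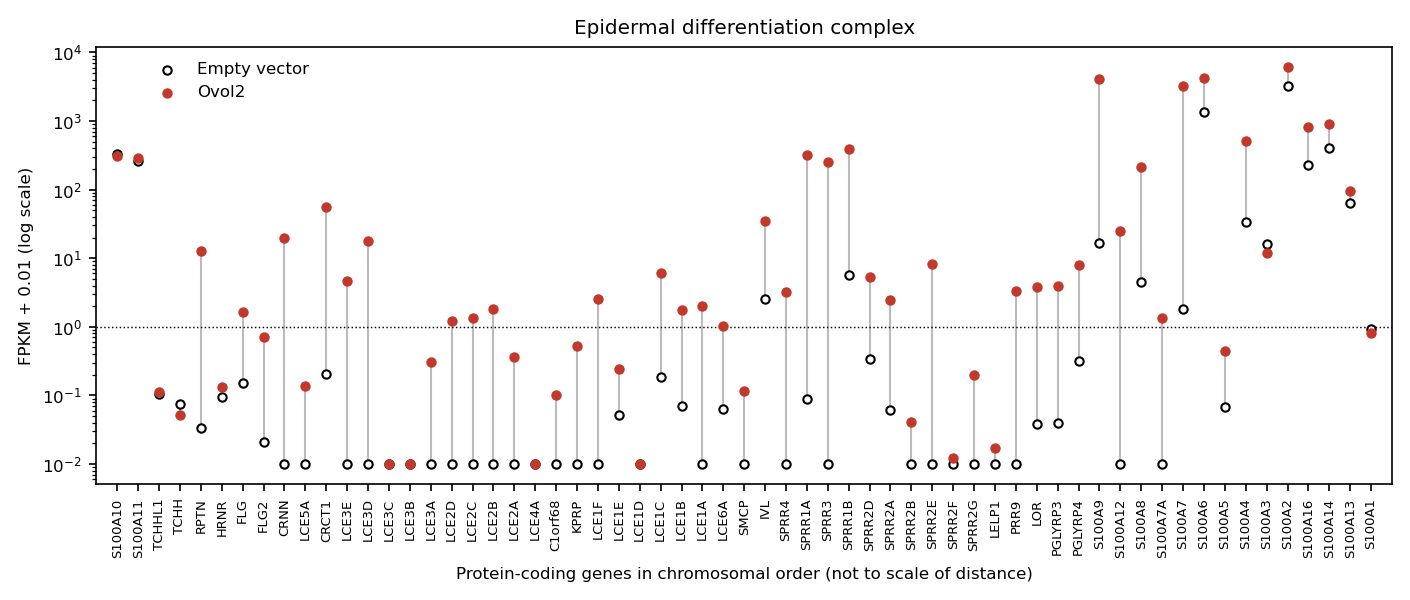
FPKM + 0.01 on a log axis for the 61 protein-coding genes of the epidermal differentiation complex in chromosomal order, 1 library per group; open circles are the empty vector and red circles the Ovol2 library, points at 0.01 are genes listed at 0, and the dotted line is the filter of 1 FPKM. The red circle is above the open one in 53 genes, and S100A10, S100A3 and S100A1 are among those where it is not. In 21 genes both circles are under the filter.

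Small proline-rich proteins, the crosslinked bridges of the envelope, were low in 3 libraries and high in the Ovol2 library. SPRR1B was at 5.66 FPKM with the empty vector, 0.447 with Zeb1, 0.373 with Snail and 391 with Ovol2 and was the member of this family at 1 FPKM or more in the control (5.88). SPRR1A was at 0.0794, 0.0667, 0.0725 and 317 FPKM in that order of libraries of libraries and SPRR3 at 0, 0.0739, 0.0642 and 254, listed at 0 in the control. SPRR2E (8.17 FPKM), SPRR2D (5.30), SPRR4 (3.16) and SPRR2A (2.42) were higher at low levels, and SPRR2B, SPRR2F and SPRR2G stayed under the filter. Among late cornified envelope genes, 10 of 18 were kept, all through the Ovol2 library alone, so no count of them is read as support. They were low, with LCE3D highest at 17.5 FPKM, LCE1C at 6.12 and LCE3E at 4.70. LCE1D, LCE3B, LCE3C and LCE4A were listed at 0 in both libraries.

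Of the other envelope proteins 19 of 26 were kept, and of the 6 at 1 FPKM or more in the control 4 were higher and 0 lower. Those 4 were CSTA, cystatin A, at 3494 against 134 FPKM (4.70), involucrin (IVL) at 34.3 against 2.49 FPKM (3.34), the suprabasal keratin KRT10 at 105 against 12.3 FPKM (2.98) and dermokine (DMKN) at 84.9 against 20.9 FPKM (1.97). The 2 others were the plakin crosslinkers EVPL at 5.94 against 7.31 FPKM (-0.26) and PPL at 22.8 against 32.1 FPKM (-0.48). Members under 1 FPKM in the control included CALML5, a skin calmodulin relative (141 against 0.0392 FPKM), suprabasin SBSN (110.1 against 0.0718 FPKM), CRCT1 (56.3 against 0.198 FPKM), cornulin CRNN (19.6 against 0 FPKM) and repetin RPTN (12.6 against 0.0240 FPKM). Proteins of the granular layer were low. Loricrin (LOR) reached 3.86 FPKM and filaggrin (FLG) 1.63, and FLG2 (0.703), HRNR (0.123) and TCHH (0.0415) stayed under 1 FPKM. TGM1, the transglutaminase that crosslinks the envelope, was at 31.7 against 4.00 FPKM (2.71), TGM5 at 2.19 against 0.636 FPKM (0.96), and TGM2, the tissue enzyme, was lower at 0.117 against 1.36 FPKM (-1.08).

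S100 proteins are small calcium-binding proteins, of which several are epidermal alarmins, and many of their genes were already expressed in the control. Of 13 members at 1 FPKM or more in the control, 8 were higher and 0 lower. Summed over the family the levels were 6005 FPKM with the empty vector, 3917 with Zeb1, 4550.0 with Snail and 24896 with Ovol2, and the share of all protein-coding FPKM went from 2.42% to 8.77%. S100P was at 8.39 FPKM with the empty vector, 3.51 with Zeb1, 4.71 with Snail and 4002 with Ovol2, S100A9 at 16.5, 2.12, 4.52 and 4144 and its partner S100A8 at 4.53, 1.06, 0.670 and 213 FPKM. The Ovol2 library was the highest for each of the 3. S100A4, which is also high in mesenchymal cells, was at 34.0, 331, 49.4 and 505, so it was high in the Zeb1 library too. S100A6 (1.62), S100A16 (1.83) and S100A14 (1.13) were higher from levels above 200 FPKM, and S100A2 was at 6158 against 3254 FPKM (0.92). S100A10 (-0.13), S100A11 (0.13), S100A13 (0.55) and S100A3 (-0.39) did not differ by 2-fold. These transcripts are short (median 679.5 nucleotides), and the median ratio of 1.42 for the family was 1.26 after length correction. Of 16 kept members 11 were higher, and 9 after that correction. S100A14 (0.83) then no longer passed 2-fold, and S100A6 (1.02) lay close to the limit.

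Kallikrein-related peptidases, the proteases that shed the outermost epidermal cells, had a sum of 8.86 FPKM with the empty vector, 1.68 with Zeb1, 1.86 with Snail and 1330.2 with Ovol2. The 8 kept members lie on chromosome 19 from KLK5 to KLK13, with KLK12, which was not kept, between KLK11 and KLK13. All but KLK5 passed the filter only through the Ovol2 library, so no count of them is read as support. KLK5 was at 5.89 FPKM with the empty vector, 0.921 with Zeb1, 0.749 with Snail and 571 with Ovol2 (6.38). KLK7 was at 0.844, 0.232, 0.195 and 351 FPKM, KLK8 at 0.816, 0.152, 0.153 and 172, KLK9 at 0.548, 0.148, 0.140 and 140.4 and KLK6 at 0, 0.0242, 0.0257 and 44.8. KLK12 (0.482 FPKM), KLK14 (0.0693) beyond KLK13, and KLK1, KLK2, KLK3, KLK4 and KLK15 stayed under the filter. Membrane serine proteases of the epithelium differed less, with matriptase (ST14) at 45.7 against 39.7 FPKM (0.20) and prostasin (PRSS8) at 15.1 against 12.1 FPKM (0.30), while TMPRSS11E was at 38.7 against 1.88 FPKM (3.78) and TMPRSS13 at 13.5 against 3.47 FPKM (1.70).

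Protease inhibitors were also among the higher genes. Among secreted inhibitors at 1 FPKM or more in the control, 6 of 7 were higher and 1 lower. CST6, cystatin M/E, was at 4.72 FPKM with the empty vector, 1.12 with Zeb1, 1.42 with Snail and 269 with Ovol2, and the secretory leukocyte inhibitor SLPI at 162, 42.7, 137 and 1215 FPKM. The lower one was WFDC2 (4.13 against 9.56 FPKM, -1.04). Elafin (PI3) was at 253 against 0.118 FPKM and SPINK5, the kallikrein inhibitor LEKTI, at 8.75 against 0.195 FPKM. Clade B serpins, a gene cluster of intracellular inhibitors, included SERPINB3 (234 against 0.613 FPKM), its near-identical neighbour SERPINB4 (27.4 against 0.173 FPKM), SERPINB13 (79.3 against 12.5 FPKM, 2.57) and SERPINB2 (15.3 against 2.15 FPKM, 2.37). Maspin (SERPINB5) was high in both, at 289.7 against 250.4 FPKM (0.21). The counting of fragments that match several near-identical genes is not stated either, so single values of SERPINB3 and SERPINB4, of SPRR2, KRT6, AKR1C and MT1 members and of S100A7 and S100A7A are uncertain.

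Enzymes that make the lipid barrier between cornified cells were mixed. Of the 21 members at 1 FPKM or more in the control, 6 were higher and 4 lower (median 0.22). Among the 6 higher were the lipoxygenase ALOX15B (142 against 11.1 FPKM, 3.56), DGAT2 (2.71), the lipid transporter ABCA12 (1.69), the elongase ELOVL1 (85.2 against 28.6 FPKM, 1.54) and the lipase cofactor ABHD5 (1.17). The 4 lower were SGMS2 (-1.68), SCD (-1.39), SPTLC2 (-1.34) and DEGS1 (-1.19), and of these DEGS1 alone passed 2-fold after length correction (-1.04). Barrier genes under 1 FPKM in the control included the ceramide synthase CERS3 (10.96 against 0.00810 FPKM), the cholesterol sulfotransferase SULT2B1 (34.8 against 0.0733 FPKM), LIPK (9.88 against 0.0848 FPKM), SDR9C7 (7.04 against 0.0292 FPKM) and ALOX12B (2.82 FPKM, listed at 0 in the control). ALOXE3 (0.343 FPKM), CYP4F22 (0.771) and TGM3 (0.509), which act late in the same layer, stayed under 1 FPKM.

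Keratins, the intermediate filaments of epithelia, differed in both directions. KRT5 was 13.6-fold lower, as given above, and its basal partner KRT14 was at 195 FPKM with the empty vector, 70.0 with Zeb1, 204 with Snail and 58.5 with Ovol2. KRT17, the most abundant keratin, was at 4624 against 5736 FPKM (-0.31) and KRT6A at 474 against 559.6 FPKM (-0.24), so these keratins of stressed and activated epithelium did not differ by 2-fold. KRT16, which pairs with KRT6 in activated epidermis, was at 41.4 FPKM with the empty vector, 14.1 with Zeb1, 26.1 with Snail and 965 with Ovol2, the highest in the Ovol2 library (4.51). KRT6B (68.2 against 5.54 FPKM, 3.40) and KRT15 (560.3 against 125 FPKM, 2.16), a keratin of basal cells, were also higher. KRT4, of the suprabasal pair of wet stratified epithelia such as oesophagus, was at 4.18 FPKM with the empty vector, 1.89 with Zeb1, 1.44 with Snail and 679 with Ovol2 (7.04). Its partner KRT13 was at 4.80, 1.73, 1.68 and 193 FPKM in that order of libraries (5.07), so the pair was high in the Ovol2 library alone. KRT10, of dry epidermis, reached 105 FPKM while its partner KRT1 reached 11.7, and KRT23 (55.1), KRT80 (14.6) and KRT79 (14.3) appeared from under 1 FPKM. The simple keratins KRT8 (-0.30), KRT18 (-0.13) and KRT7 (-0.75) did not differ by 2-fold, and KRT19 was at 0.909 against 0.138 FPKM. Among simple and suprabasal keratins the median was 2.98 over the 13 kept members and -0.22 over the 8 at 1 FPKM or more in the control, so its sign rests on members under 1 FPKM in the control.

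**Figure D3:**
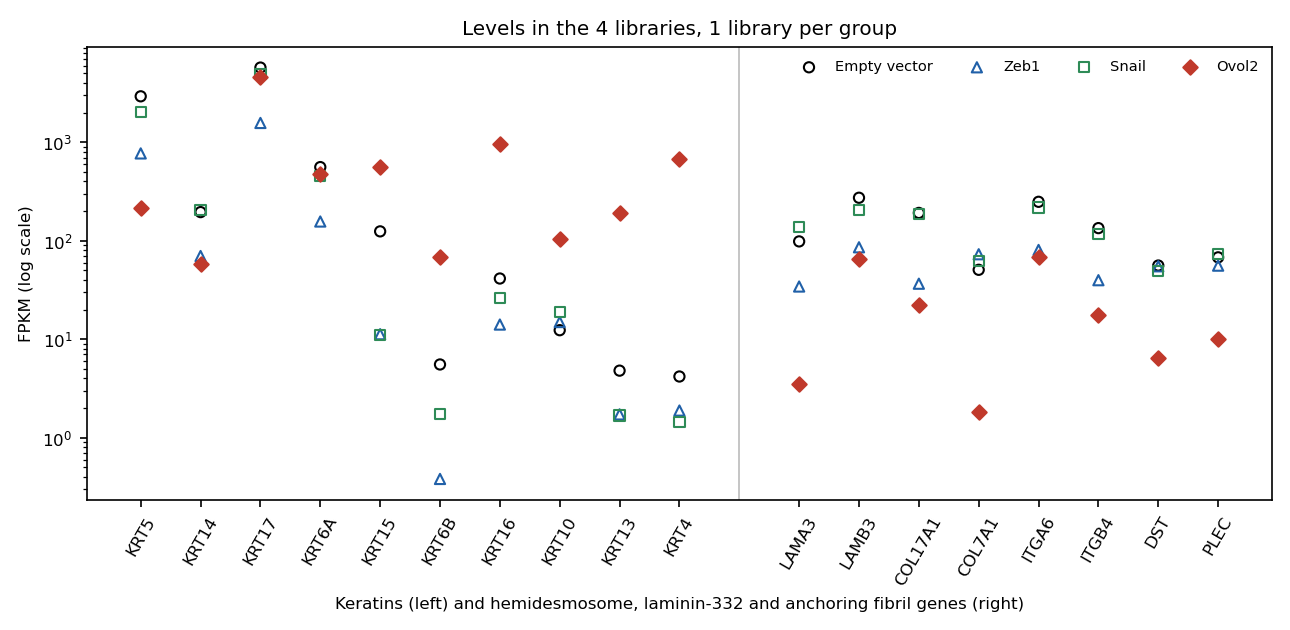
FPKM on a log axis of 10 keratins (left) and 8 genes of hemidesmosomes, laminin-332 and anchoring fibrils (right) in the 4 libraries, 1 point per library. The Ovol2 library (filled diamonds) is lowest for KRT5 and KRT14, highest for KRT15, KRT6B, KRT16, KRT10, KRT13 and KRT4, and lowest for all 8 genes on the right.

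Hemidesmosomes and laminin-332 were lower almost throughout. Of 10 kept members 9 were lower and 0 higher (median -2.75), 9 of them also after length correction (median -1.67; median transcript 5804 nucleotides). COL7A1, the collagen of anchoring fibrils, was at 50.7 FPKM with the empty vector, 72.9 with Zeb1, 62.4 with Snail and 1.83 with Ovol2 (-4.19). The laminin-332 chain LAMB3 (65.3 against 273 FPKM, -2.05) was lower by less than LAMA3. COL17A1 (-3.04), dystonin DST (-2.93), the integrin chains ITGB4 (-2.87) and ITGA6 (-1.84) and plectin PLEC (-2.63) followed, and the tetraspanin CD151 was at 162 against 212 FPKM (-0.39). For each of these genes the Ovol2 library was the lowest of the 4. In the Snail library LAMA3, COL7A1, PLEC and CD151 lay above the empty vector library.

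Other basement membrane genes were lower too, with 13 of 14 kept members lower, 0 higher and 12 lower after length correction (median -2.59, corrected -1.60). The collagen IV chain COL4A1 was at 31.7 FPKM with the empty vector, 96.1 with Zeb1, 68.1 with Snail and 1.61 with Ovol2 (-3.64). Its partner COL4A2 was at 45.8, 99.2, 78.5 and 2.33 FPKM in that order of libraries (-3.81). Both were higher with Zeb1 and Snail than in the control and lowest with Ovol2. PXDN, the peroxidase that crosslinks collagen IV, was at 0.799 against 27.1 FPKM (-3.97), LAMB1 at 3.62 against 66.0 FPKM (-3.86), COL4A6 at -3.14, FBLN1 at -2.93 and LAMC1 at -2.59. LAMA4 (0.380 against 1.31 FPKM, -0.74) was the member not called. Among the other integrins, the receptors for this and for interstitial matrix, 9 of 11 were lower: ITGA5 (2.57 against 32.5 FPKM, -3.23), ITGA1 (0.381 against 10.1 FPKM, -3.01), ITGAV (-2.66), ITGB5 (-2.47), ITGB1 (38.3 against 201 FPKM, -2.36), ITGB6 (-2.20), ITGA2 (-1.76), ITGA3 (-1.54) and ITGB8 (-1.39). After length correction 6 of them passed 2-fold.

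Desmosomes, the junctions between keratinocytes, were split. Of 12 kept components 2 were higher and 6 lower. DSG1, the cadherin of upper epidermis, went from 0.0199 to 2.80 FPKM and PERP, a membrane component, was at 855 against 311 FPKM (1.45). DSG2 (13.1 against 61.6 FPKM, -2.16), PKP2 (-2.14), DSC3 (-1.76), PKP4 (-1.56), desmoplakin DSP (-1.43) and DSG3 (-1.17) were lower, of which DSG2 and PKP2 passed 2-fold after length correction. Plakoglobin (JUP) was at 100.5 against 68.3 FPKM (0.55) and PKP3 at 54.6 against 35.4 FPKM (0.61). Of 6 connexins, the gap junction proteins, 3 were higher and 1 lower. GJB2 (60.3 against 1.85 FPKM, 4.43) and GJA1 (13.6 against 0.536 FPKM) were among the higher, and GJC1 (0.203 against 2.36 FPKM, -1.48) was the lower one. Among 15 tight junction genes 5 were higher and 2 lower. CLDN4 was at 8.31 FPKM with the empty vector, 1.92 with Zeb1, 2.93 with Snail and 113 with Ovol2 (3.61). CLDN1, the barrier claudin of skin, was lower at 73.2 against 252 FPKM (-1.77), as was the scaffold TJP1 (2.29 against 10.7 FPKM, -1.83), whose length-corrected value was -0.78. Of 10 cadherins and catenins 5 were lower and 0 higher, and 2 were lower after length correction. P-cadherin (CDH3) was lower at 26.6 against 79.7 FPKM (-1.55), but not past 2-fold after length correction (-0.69), and CDH13 at 2.04 against 17.7 FPKM (-2.63), and E-cadherin (CDH1) at 30.8 against 60.4 FPKM (-0.95) just missed 2-fold, with a length-corrected value of -0.09.

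**Figure D4:**
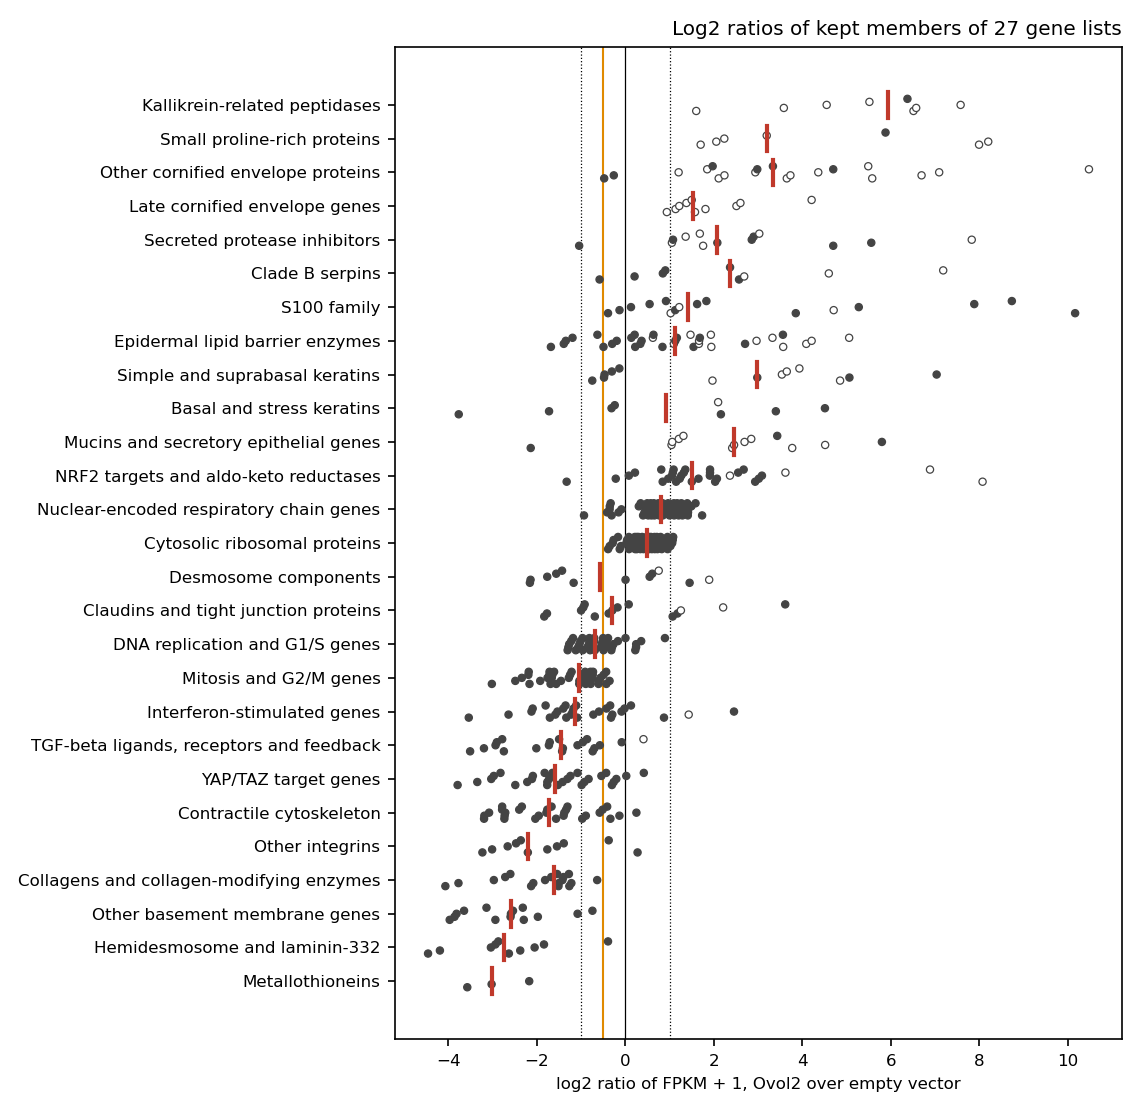
Log2 ratios of the kept members of 27 gene lists, 1 point per gene, filled where the gene was expressed at 1 FPKM or more with the empty vector and open where it passed the filter only through the Ovol2 library; red bars are list medians, dotted lines 2-fold and the orange line the median of all kept genes at -0.51. Kallikreins have the highest median and metallothioneins the lowest; most points in the top rows are open.

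Extracellular matrix outside the basement membrane was lower. Of 25 kept matrix glycoproteins and proteoglycans 17 were lower and 2 higher (median -2.01, length-corrected -1.26). Fibronectin (FN1) was at 92.7 FPKM with the empty vector, 3982 with Zeb1, 576 with Snail and 6.602 with Ovol2, lowest with Ovol2. TGFBI, an abundant matrix protein that TGF-beta induces, was at 1999, 3909, 3038 and 289.9 FPKM, and the elastic fibre proteins EFEMP1 (16.5 against 122 FPKM, -2.81) and FBN2 (-2.61) and periostin POSTN (1.39 against 14.9 FPKM, -2.73) were lower too. SDC1, the epithelial syndecan, was at 376 against 156 FPKM (1.27) and ECM1 at 2.33 against 0.270 FPKM, and these were the 2 higher. Of collagens and their modifying enzymes 17 of 18 were lower, led by COL12A1 (1.26 against 36.8 FPKM, -4.07), the lysyl oxidase LOX (1.51 against 33.2 FPKM, -3.77), PLOD2 (7.50 against 65.6 FPKM, -2.97), LOXL2 (-2.71) and COL8A1 (-2.60). COL5A2 (-0.64) was the member not called. After length correction 10 of them were lower.

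Among TGF-beta ligands, receptors and feedback genes 13 of 20 were lower and 0 higher (7 lower after length correction). The type I receptor TGFBR1 was at 22.4 FPKM with the empty vector, 17.5 with Zeb1, 39.8 with Snail and 1.06 with Ovol2, lowest with Ovol2 (-3.51). The type II receptor TGFBR2 was at 13.7 against 25.8 FPKM (-0.86) and the ligand TGFB1 at 8.28 against 8.81 FPKM (-0.08), neither past 2-fold, whereas the induced genes PMEPA1 (5.61 against 59.4 FPKM, -3.19) and SMAD7 (-2.01) and the latent binding proteins LTBP1 (-2.90) and LTBP2 (-2.93) were lower. Of 19 matrix proteases and plasminogen genes 11 were lower, among them MMP14 (31.1 against 113 FPKM, -1.83), ADAM9 (15.6 against 73.5 FPKM, -2.17) and MMP28 (-1.80). The urokinase PLAU (-0.46) and its receptor PLAUR (0.73) did not differ by 2-fold.

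Genes of the contractile cytoskeleton and of cell attachment were lower without exception among those called. Of 28 kept contractile genes 20 were lower and 0 higher (median -1.71, length-corrected -1.16 with 16 lower). TNS3 (1.39 against 20.8 FPKM, -3.19), TPM2 (11.5 against 113 FPKM, -3.18), alpha-actinin ACTN1 (7.72 against 72.6 FPKM, -3.08), filamin FLNA (28.2 against 200.2 FPKM, -2.78), non-muscle myosin MYH9 (22.3 against 159 FPKM, -2.78) and vimentin VIM (1.05 against 12.6 FPKM, -2.73) had the lowest ratios or highest levels. ACTN4 (-0.89), MYL6 (0.25), TAGLN2 (-0.41) and TPM4 (-0.51) did not differ by 2-fold. Target genes of YAP and TAZ, the coactivators that respond to cell attachment and spreading, were lower in 20 of 30 and higher in 0 (11 lower after length correction). CTGF, a matricellular protein, was at 33.1 FPKM with the empty vector, 142 with Zeb1, 62.5 with Snail and 3.34 with Ovol2 (-2.97). Its relative CYR61 was at 48.9, 123, 81.1 and 10.7 FPKM in that order of libraries (-2.09), so both were above the control with Zeb1 and Snail and lowest with Ovol2. Among caveolar and annexin genes 3 of 18 were higher and 7 lower. The caveolar genes PTRF (8.97 against 111 FPKM, -3.49), PRKCDBP (1.34 against 19.8 FPKM, -3.15), SDPR (-2.63) and CAV1 (70.4 against 231 FPKM, -1.70) were lower. Of the annexins, ANXA5 was lower (14.3 against 104 FPKM, -2.79) and ANXA1 higher (723 against 314 FPKM, 1.20), and ANXA2 was at 710.0 against 766 FPKM (-0.11).

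EGFR, the receptor for the EGF in the medium, was at 55.6 FPKM with the empty vector, 22.5 with Zeb1, 47.9 with Snail and 6.16 with Ovol2, 9.02-fold lower with Ovol2 than in the control (-2.98, length-corrected -1.92). ERBB2 (19.2 against 15.6 FPKM, 0.28) and ERBB3 (11.6 against 10.9 FPKM, 0.08) did not differ by 2-fold. Among the EGF family ligands HBEGF was at 26.3 against 5.47 FPKM (2.08) and BTC at 3.32 against 0.805 FPKM, with 0 of 8 lower. Of 18 other receptor tyrosine kinases 10 were lower, led by ROS1 (1.11 against 34.9 FPKM, -4.09), MET (2.67 against 37.1 FPKM, -3.38), AXL (1.91 against 19.5 FPKM, -2.82) and IGF1R (-2.19), and EPHA1 (18.8 against 6.04 FPKM, 1.49) was higher. After length correction 4 stayed lower. Of 21 AP-1 and MAPK feedback genes 2 were higher and 9 lower, and 4 were lower after length correction. The feedback phosphatase DUSP6 (2.45 against 15.5 FPKM, -2.25) and the inhibitor SPRED1 (-1.59) and the immediate early genes ATF3 (8.93 against 56.0 FPKM, -2.52), JUN (12.2 against 51.8 FPKM, -1.998), FOSB (-1.62), EGR1 (-1.40) and MYC (101 against 211 FPKM, -1.05) were lower. SPRED1 (-0.53), FOSB (-0.95), EGR1 (-0.87) and MYC (-0.79) did not pass 2-fold after length correction. IER3 (131 against 48.1 FPKM, 1.43) and DUSP5 (1.07) were the higher ones, and JUNB (166 against 129.8 FPKM, 0.36) and FOS (185 against 320.5 FPKM, -0.79) were not called.

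Of 14 NOTCH pathway genes 1 was higher and 6 lower, 4 of them also after length correction. The ligands DLL1 (0.472 against 6.98 FPKM, -2.44), JAG2 (4.99 against 29.3 FPKM, -2.34) and JAG1 (4.07 against 23.3 FPKM, -2.26) and the receptors NOTCH1 (6.22 against 33.1 FPKM, -2.24) and NOTCH2 (-1.27) were lower. The target HES1 was at 107 against 131 FPKM (-0.28) and the feedback target NRARP, low in the control, at 6.53 against 0.871 FPKM. In the WNT list 3 of 17 were higher and 7 lower. SFRP1, a secreted antagonist, was at 4.27 against 46.3 FPKM (-3.16) and DKK1 at 29.7 against 89.6 FPKM (-1.56), both lower, while WNT4 (11.3 against 2.45 FPKM, 1.83) and WNT5A (6.85 against 2.01 FPKM, 1.38) were higher. WNT5A was higher still in the Zeb1 (82.4 FPKM) and Snail (14.9 FPKM) libraries. Of 13 BMP pathway and ID genes 1 was higher and 6 lower, and after length correction 0 were higher and 2 lower. The lower ones were SMAD7 (-2.01), SMAD5 (-1.58), BMPR2 (-1.30), BMP1 (-1.29), BMPR1A (-1.25) and NOG (-1.18). Of the BMP-responsive ID genes, ID1 was at 179 against 84.3 FPKM (1.08) and ID3 at 50.2 against 47.4 FPKM (0.08).

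Targets of NRF2, the factor of the antioxidant response, and aldo-keto reductases were mostly expressed in the control already, and most were higher with Ovol2. Of the 27 members at 1 FPKM or more in the control 20 were higher and 1 lower, and length correction gave 26 higher and 0 lower of all 31 kept. The sum went from 2511 to 9869 FPKM, 1.011% to 3.48% of protein-coding FPKM, and was 4072 with Zeb1 and 2587 with Snail. The quinone reductase NQO1 was at 68.2 FPKM with the empty vector, 35.3 with Zeb1, 49.7 with Snail and 588 with Ovol2 (3.09). AKR1B10, which reduces retinal and other aldehydes, was at 0.848, 0.337, 0.259 and 497 FPKM and the glutathione peroxidase GPX2 at 0.711, 0.374, 0.296 and 201. AKR1C3 (801 against 136 FPKM, 2.55), AKR1C2 (346 against 41.8 FPKM, 3.02), HMOX1 (31.8 against 3.29 FPKM, 2.94), the ferritin chains FTL (2965 against 463 FPKM, 2.68) and FTH1 (1599 against 639 FPKM, 1.32) and SRXN1 (79.8 against 20.4 FPKM, 1.92) were higher. FTH1 was highest in the Zeb1 library, at 1948 FPKM. The pentose phosphate and NADPH-producing enzymes PGD (199.8 against 52.2 FPKM, 1.92), ME1 (1.504), TALDO1 (1.36) and TKT (551 against 265 FPKM, 1.06) were higher too. UGDH (2.53 against 7.83 FPKM, -1.33) was lower, and TXNRD1 (-0.22), GSR (0.08), GCLC (0.81), TXN (0.97), EPHX1 (0.85) and ABCC3 (0.22) were not called.

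Of 19 aldehyde dehydrogenase and retinoid genes at 1 FPKM or more in the control 5 were higher and 6 lower. ALDH3A1 was at 212 against 13.5 FPKM (3.88) and ALDH1A1, from under the filter, at 46.7 against 0.483 FPKM, while ALDH1A3 (4.39 against 12.7 FPKM, -1.35), ALDH1B1 (4.29 against 17.8 FPKM, -1.83) and ALDH7A1 (-1.74) were lower. The retinoic acid carrier CRABP2 (195 against 18.6 FPKM, 3.32) and the fatty acid carriers FABP4 (718 against 82.8 FPKM, 3.10) and FABP5 (115 against 20.2 FPKM, 2.45) were higher, and RDH12 (27.3 against 0.0327 FPKM) and DHRS9 (6.303 against 0.0826 FPKM) appeared. Of 16 xenobiotic enzymes at 1 FPKM or more in the control 4 were higher and 0 lower. Among the glutathione transferases GSTP1 was at 2166 against 899 FPKM (1.27) and MGST1 at 183 against 78.0 FPKM (1.22). Metallothioneins, which bind zinc and copper, were lower in 3 of 3. MT2A was at 1419 FPKM with the empty vector, 760.1 with Zeb1, 1454 with Snail and 119 with Ovol2, 11.97-fold lower with Ovol2 than in the control (-3.57), MT1E at 78.5 against 644 FPKM (-3.02) and MT1X at 70.4 against 321 FPKM (-2.17). Their transcripts are short, so their length-corrected values were lower still (-4.16, -3.61 and -2.80).

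Of 13 kept mucin and secretory genes 3 were at 1 FPKM or more in the control, 2 of them higher and 1 lower. PSCA was at 5.41 FPKM with the empty vector, 1.63 with Zeb1, 5.79 with Snail and 356 with Ovol2 and LYPD3, a keratinocyte surface protein, at 14.9, 11.6, 6.98 and 171 FPKM. AGR2 (25.1 against 0.140 FPKM), GCNT3 (18.3 against 0.410 FPKM), MUC15 (6.27 against 0.0103 FPKM) and SCGB1A1 (5.92 against 0.0691 FPKM) were higher, and the transmembrane mucin MUC1 was lower (0.353 against 4.95 FPKM, -2.14). Among antimicrobial and acute phase genes at 1 FPKM or more in the control 3 were higher and 3 lower of 7 (median -0.14, against 1.96 over all 12 kept). The defensin DEFB1 (113 against 1.26 FPKM, 5.66), the interleukin-1 antagonist IL1RN (53.9 against 1.28 FPKM, 4.59) and RNASE7 (6.94 against 1.496 FPKM, 1.67) were higher, and complement C3 (11.6 against 55.6 FPKM, -2.17), CFB (1.68 against 6.98 FPKM, -1.58) and serum amyloid SAA1 (19.99 against 60.6 FPKM, -1.55) were lower. LCN2, which binds bacterial siderophores, went from 0.488 to 50.1 FPKM. Of 19 cytokines and related genes 5 were higher and 5 lower. CXCL1 (2.53 against 9.05 FPKM, -1.51), CXCL2 (2.35 against 10.1 FPKM, -1.73) and CSF1 (0.624 against 6.42 FPKM, -2.19) were lower and IL1B (14.5 against 5.61 FPKM, 1.23) and CCL20 (8.75 against 2.53 FPKM, 1.47) higher.

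Interferon-stimulated genes were lower in 16 of 28 and higher in 2 (median -1.14, length-corrected -0.65 with 10 lower). IFITM3, a restriction factor of endosomes, was at 95.2 FPKM with the empty vector, 55.1 with Zeb1, 81.5 with Snail and 14.4 with Ovol2, and IFITM2 at 32.9, 18.3, 29.1 and 1.92 FPKM, both lowest with Ovol2. IRF1 (0.783 against 6.75 FPKM, -2.12), GBP2 (3.70 against 15.4 FPKM, -1.80) and the immunoproteasome subunit PSMB8 (4.55 against 17.1 FPKM, -1.70) were lower. OAS1 (21.2 against 3.05 FPKM, 2.46) and OASL (2.37 against 0.249 FPKM) were the 2 higher, and ISG15 (12.2 against 11.1 FPKM, 0.13) was not called. HLA-B, HLA-C, HLA-E and HLA-F did not differ by 2-fold, with HLA-C at 93.6 against 90.3 FPKM (0.05) and B2M at 308 against 488 FPKM (-0.66). The peptide loading genes TAP1 (-1.58), TAPBP (-1.55) and ERAP1 (-1.37) were lower. Of 15 kept MHC class I and antigen loading genes 3 were lower and 0 higher, and 1 was lower after length correction. The share called lower was not above the 25.1% of all kept genes, so the count is not read as a result about these genes.

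Of all kept genes 25.1% were lower, and the counts for cell cycle genes differed with the scaling. Of 42 genes of mitosis 22 were lower and 0 higher (median -1.04), 16 after centring and 14 after length correction (median -0.88). Of 40 genes of DNA replication 9 were lower and 0 higher (median -0.69), 0 after centring and 1 after length correction, so that the share of replication genes called lower was near that of all kept genes. CENPF, a long kinetochore transcript, was at 1.04 against 15.5 FPKM (-3.02) and TOP2A at 6.46 against 40.7 FPKM (-2.49), and of shorter ones PTTG1, securin, was at 55.7 FPKM with the empty vector, 16.7 with Zeb1, 39.98 with Snail and 16.3 with Ovol2 (-1.71). Cyclins CCNB1 (28.99 against 41.1 FPKM, -0.49) and CCNA2 (12.6 against 21.5 FPKM, -0.73) and CDK1 (12.2 against 21.2 FPKM, -0.75) did not differ by 2-fold, and PCNA was at 71.7 against 61.2 FPKM (0.23). Among 24 CDK inhibitors and p53 targets 4 were higher and 8 lower. The CDK inhibitor CDKN1A was higher at 189.5 against 77.1 FPKM (1.29), as were SFN, the 14-3-3 protein of stratified epithelium (608 against 248 FPKM, 1.29), and GDF15 (71.0 against 3.20 FPKM, 4.10). Other p53 targets were lower, among them GADD45A (19.0 against 91.2 FPKM, -2.20), FAS (1.63 against 11.1 FPKM, -2.20) and RRM2B (1.31 against 9.06 FPKM, -2.12).

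Genes of the respiratory chain were higher in 25 of 66 and lower in 0 (median 0.82), 52 after centring and 15 after length correction (median 0.55). COX7B, a subunit of cytochrome oxidase, was at 140.1 FPKM with the empty vector, 62.6 with Zeb1, 109 with Snail and 469 with Ovol2, NDUFA13 at 370.5 against 123 FPKM (1.59), COX5B at 474 against 168 FPKM (1.49) and UQCRQ at 190.1 against 70.3 FPKM (1.42). SDHA (-0.93) and UQCRC1 (-0.33) had negative ratios. Ribosomal protein genes, also short, had a median of 0.48 with 4 of 70 higher, and took 16.5% of protein-coding FPKM in the control and 20.5% in the Ovol2 library. After length correction their median was 0.20. Proteasome subunits had a median of 0.41 with 3 of 31 higher, PSMD8 (1.17), PSMB3 (1.09) and PSMB6 (1.06).

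**Figure D5:**
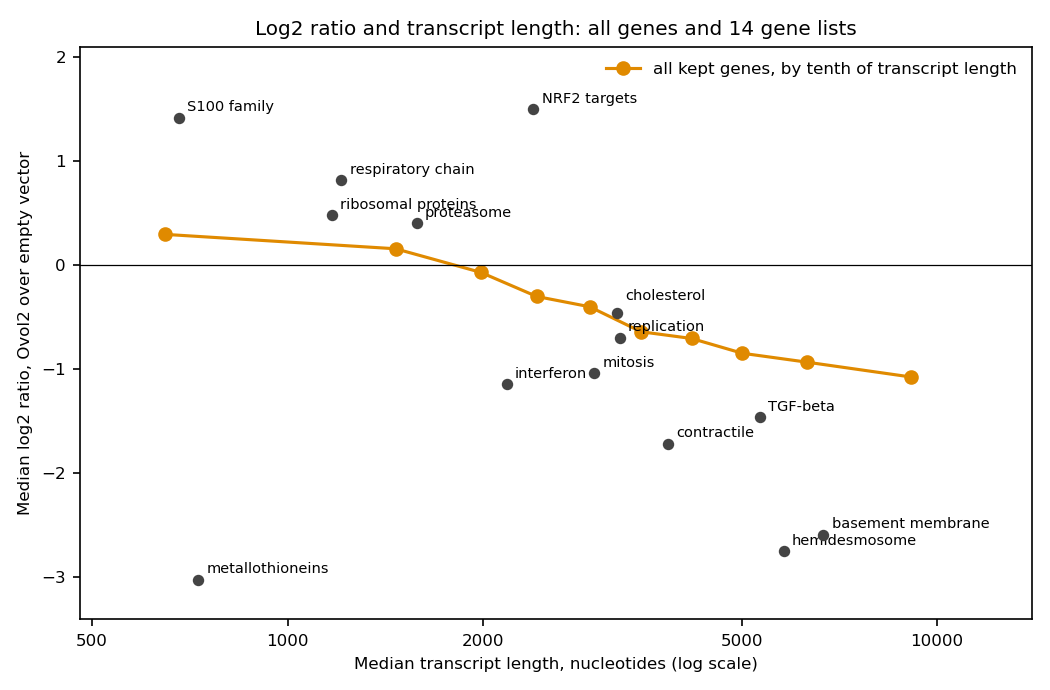
Median log2 ratio against median transcript length on a log axis, in orange for 10 equal groups of the kept genes by length and in grey for 14 gene lists. The orange line goes from 0.30 to -1.07; respiratory chain and ribosomal protein lists lie above it at short lengths, metallothioneins at a like length lie far under it, and hemidesmosome and basement membrane lists lie under it at long lengths.

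Of 31 glycolysis and hypoxia genes 2 were higher and 10 lower, 3 after length correction. The glucose transporter SLC2A1 was at 32.9 FPKM with the empty vector, 24.7 with Zeb1, 11.7 with Snail and 163 with Ovol2, so it was highest with Ovol2 (2.27). The glycolytic enzymes ENO1 (216 against 708 FPKM, -1.71) and LDHA (111 against 249.2 FPKM, -1.16) and the lactate exporter SLC16A3 (25.8 against 72.3 FPKM, -1.45) were lower, and GAPDH was at 449 against 798 FPKM (-0.83), PGK1 at 217 against 186 FPKM (0.22) and TPI1 at 186 against 147 FPKM (0.34). In cholesterol and fatty acid synthesis 2 of 29 were higher, TM7SF2 (9.09 against 2.17 FPKM, 1.67) and MVK (24.6 against 11.3 FPKM, 1.06), and 7 lower, led by lanosterol synthase LSS (3.60 against 24.3 FPKM, -2.46). After length correction 1 of them was lower. The plain counts were near the shares of all kept genes, 6.82% higher and 25.1% lower. The list median of -0.45 was near the median of -0.51 of all kept genes, so the counts are not read as a result about these genes. Of 26 unfolded protein and amino acid stress genes 5 were higher and 4 lower. MANF (68.2 against 28.1 FPKM, 1.25), DDIT3 (11.5 against 4.66 FPKM, 1.14), HERPUD1 (35.7 against 16.001 FPKM, 1.11), XBP1 (45.9 against 21.9 FPKM, 1.03) and CHAC1 (1.31 against 0.119 FPKM) were higher, the chaperone HSP90B1 (73.8 against 173 FPKM, -1.22) was lower, and HSPA5 was at 28.7 against 28.1 FPKM (0.03). Among 23 channel, carrier and lipid droplet genes at 1 FPKM or more in the control 9 were higher and 5 lower. The water and glycerol channel AQP3 was at 16.8 times its control level (661 against 39.3 FPKM, 4.04), FXYD3 at 719 against 119 FPKM (2.59), CLIC3 at 95.9 against 19.7 FPKM (2.23), the chloride channel regulator CLCA2 at 88.8 against 28.8 FPKM (1.59) and the fatty acid transporter CD36 at 21.7 against 3.52 FPKM (2.33). The amino acid transporter SLC7A5 (68.6 against 186 FPKM, -1.43) and the sodium channel subunit SCNN1A (22.9 against 52.4 FPKM, -1.16) were lower.

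Markers of immune and endothelial cells were low. Of 18 immune markers 3 were kept, CD14 (2.49 against 1.46 FPKM), CD68 (5.09 against 1.76 FPKM, 1.14) and CSF1R (0.349 against 1.02 FPKM), while PTPRC, CD3E, MS4A1 and HLA-DRA were listed at 0 in the control. With Ovol2 PTPRC was at 0.00632 FPKM, CD3E at 0, MS4A1 at 0.0123 and HLA-DRA at 0.0161. The immune list summed to 4.50 FPKM in the control and 9.49 with Ovol2. Of 10 endothelial markers VWF alone was kept, at 1.29 against 0.00389 FPKM. Of 14 neural and muscle markers 2 were kept, MAP2 (1.64 against 1.66 FPKM) and the tubulin TUBB3, which was expressed in both libraries (45.1 against 23.5 FPKM, 0.91). Of 9 kept markers of mammary luminal cells 4 were higher and 1 lower, and the list summed to 229.8 FPKM in the control and 249.9 with Ovol2. Most of that sum came from KRT8 and KRT18. The luminal factor FOXA1 was higher (3.32 against 0.430 FPKM, 1.59), as were SPDEF (1.40 against 0.0359 FPKM, 1.21), AGR2 and XBP1, and MUC1 was lower. ESR1 was at 0.875 against 1.65 FPKM and GATA3 at 1.06 against 2.17 FPKM, the milk protein CSN2 was listed at 0 in both libraries, and PGR stood at 0.00344 FPKM with Ovol2.

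A last comparison set the Ovol2 library against all 3 others. A gene was counted when the Ovol2 library was 2-fold or more beyond each of the 3 other libraries on the same scale. There were 712 such genes above (6.03%) and 2128 below (18%). Of the 806 higher genes 88.3% were above all 3, and of the 2965 lower genes 71.8% were below all 3. Among the lists, 21 of 31 kept NRF2 targets and aldo-keto reductases, 9 of 16 S100 genes and 25 of 66 respiratory chain genes were above all 3. Below all 3 were 5 of 10 hemidesmosome and laminin-332 genes, 11 of 14 other basement membrane genes, 18 of 28 contractile genes and 18 of 30 YAP and TAZ targets. All of these share the empty vector library as 1 of the 3.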

How the data were processed

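RNA of sorted MCF10A cells was sequenced from TruSeq RNA v2 libraries, per the labels' protocols, and TopHat, Cufflinks, Cuffdiff and the build hg19 are named in the submitters' processing notes, without versions. The deposited table of each factor gives 1 value per gene and library, read here as FPKM from Cufflinks because the headers name no unit. The empty vector values are the same in all 3 tables. The authors' deposited table also holds signed fold values and p-values from 1 value per side. It lists a Benjamini-Hochberg adjusted p under 0.05 in 21893 of 25360 rows (86.3%), and these p-values were not used. The authors' fold, a ratio of the values in the deposited table, was used as an alternative rule.

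Rows with the same symbol were summed (43 repeats), genes kept that reached 1 FPKM in either library, and log2 ratios of FPKM + 1 computed with Python 3.11, pandas 2.3.3, numpy 2.4.6 and scipy 1.17.1, and drawn with matplotlib 3.10.9. Length is that of the longest coding transcript in GENCODE 29. It was preferred to the median over all transcripts after both results were seen, because low values then fell on sharper steps of 1 fragment. Depth came from those steps and is an estimate. The computation of the correction was checked on values simulated from well expressed genes of the empty vector library. They were given a smooth length trend, little noise and large planted changes. All 99 of 99 genes made higher and 100 of 100 made lower were recovered, with 0 false calls among 6993 genes. Such a trend is what the correction removes, so this outcome lends no support to the length-corrected calls in the real libraries.

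The comparison, the 60 gene lists and the motifs were chosen with earlier results of these data known. Named genes are the 5 markers, the 30 highest and 30 lowest ratios at 5 FPKM or more, and, per list, up to 8 members of largest ratio, all called members against the list's majority and members at 20 FPKM or more that were not called. Other members named for their role were chosen after their values were seen. Promoters came from RefSeq on GRCh38.p14 and are not in the build of the tables. Some members of the lists are not reported here.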

Additional observations from a re-analysis of the deposited data

How the results depend on the processing

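With 1 library per group there is no spread between replicates, and no replicate could be left out. No paired analysis was possible because each group has 1 library. The counts of called genes depended on the scaling. Centred on the median ratio, 1709 genes were higher and 1053 lower, 1495 above all 3 other libraries and 774 below. Lower genes stayed the majority of called genes under some scalings, but not after this centring, upper quartile scaling or length correction. Scaling without RMRP and RPPH1 gave 569 higher and 3790 lower, with a median ratio of -0.67. Centring on genes at a mean of 10 FPKM or more, chosen after seeing the data, gave 1021 higher and 2264 lower. Upper quartile scaling, which moved the median ratio from -0.51 to 0.23, gave 2697 higher, 898 lower, 2030 above all 3 and 681 below. A pseudocount of 5 FPKM gave 437, 877, 407 and 620 in the same order, and one of 0.1 FPKM gave 3315 below all 3. Length correction gave 859 lower, and with the median transcript as length, an alternative chosen after seeing the data, 1547 higher and 1051 lower. Genes at 1 FPKM or more in the control, also chosen after seeing the data, gave 516 higher and 451 above all 3. The fold in the authors' deposited table, with no filter, passed 2 in 6386 rows upward and 7402 downward. The median of antimicrobial and acute phase genes went from 1.96 to -0.14, and that of simple and suprabasal keratins from 2.98 to -0.22, when members under 1 FPKM in the control were left out, and no other list median changed sign among those past 2-fold. Of 28 list medians past 2-fold, 22 stayed past it after centring, 19 after upper quartile scaling, 20 after length correction, 17 with a pseudocount of 5 FPKM and 14 with no filter. Of 420 named genes past 2-fold, 363, 339, 316, 298 and 420 did so, and 0 changed direction while past it. At the estimated depth 1 fragment on a transcript of 1 kilobase is 0.0339 FPKM in the empty vector and 0.0407 in the Ovol2 library, so levels near these rest on single fragments.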

Other observations

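Genes outside the lists stood at both ends, and those named here were picked after their values were seen, from the 40 protein-coding genes outside the lists with the largest ratio on each side. Among the highest were secreted and surface proteins of glandular and squamous epithelium. MSMB, a secreted protein of the prostate, was at 0.104 FPKM with the empty vector, 0.286 with Zeb1, 0.160 with Snail and 71.0 with Ovol2. AZGP1, zinc-alpha-2-glycoprotein, was at 0.366, 0.336, 0.1001 and 85.9 FPKM, the small breast mucin MUCL1 at 0.0351, 0, 0.0129 and 49.7 and SLURP1, a secreted Ly6 protein of keratinocytes, at 0.0640, 0.107, 0.0589 and 47.0. The Ovol2 library was the highest of the 4 for each. LY6D was at 224 against 15.4 FPKM (3.77), the glycolipid carrier GLTP at 258 against 15.7 FPKM (3.95), 16.4 times its control level, the glutaredoxin GLRX at 134 against 3.26 FPKM (4.98) and TMEM45A at 101 against 3.68 FPKM (4.45). ASPRV1, the protease that processes filaggrin, went from 0.0791 to 43.5 FPKM, although filaggrin itself was at 1.63 FPKM, and the deiminases PADI3 (10.4 FPKM) and PADI4 (8.604 FPKM) appeared from under 1 FPKM.

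On the lower side outside the lists stood HEG1 (0.227 against 15.9 FPKM, -3.78), which had the lowest ratio of them, the methyltransferase NNMT (14.5 against 152 FPKM, -3.30), the iron reductase CYBRD1 (2.62 against 46.0 FPKM, -3.70), the matrix protein CCDC80 (5.82 against 69.1 FPKM, -3.36), the serine protease FAP (3.53 against 42.0 FPKM, -3.25), the membrane linker moesin MSN (6.52 against 61.0 FPKM, -3.04), ANPEP (0.819 against 17.4 FPKM, -3.34), ETS1 (0.626 against 11.9 FPKM, -2.99) and glutamate dehydrogenase GLUD1 (10.4 against 72.1 FPKM, -2.68). The 3 other libraries lay close together for NNMT, with 152 FPKM for the empty vector, 156 for Zeb1 and 150.5 for Snail. FLOT2 (1.24 against 18.6 FPKM, -3.12) and the biliverdin reductase BLVRA (1.97 against 22.1 FPKM, -2.96) were lower as well. Among neighbouring kept genes there were 6 runs of 5 or more that were all higher and 27 that were all lower. Genes kept only through the Ovol2 library could not be lower, and in 1 of the higher runs, GIPC1 to CASP14, all 5 genes were at 1 FPKM or more in the control. The longest lower run held 8 genes from LPCAT3 to PEX5 on chromosome 12.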
